A study of Ovis aries with 2 samples.

Results

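The S100A genes encode small calcium-binding proteins, and 7 of the 8 members looked for had a row among the 18161 genes measured. S100A4, S100A8, S100A9, S100A11, S100A14 and S100A16 were found by symbol and S100A10 by its RefSeq gene ID, while S100A12, which encodes a granulocyte protein, was matched by neither symbol nor gene ID and is not analysed here. The rule for the genes was family membership, set with earlier results of these data known. Lambskin cells of the Hu Sheep breed were profiled by droplet single-cell RNA-seq in 2 libraries, with the question of how cells of straight wool and of curly wool skin differ. Skin was taken from the body side of lambs aged 3 days, and cells of 3 lambs of each wool type were pooled into 1 library, from a mixture of isolated hair follicles and whole skin. The labels name no treatment and no altered gene for either group. Since each wool type had a single library, the wool types could not be tested against each other, and wool type, library and pool cannot be told apart.

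An S100 protein has a pair of calcium-binding EF-hand motifs, usually works as a dimer, and in most members changes shape when calcium rises so that it can grip a partner protein. S100A10 is an exception that has lost calcium binding. S100A8 and S100A9 join into calprotectin, which neutrophils carry in bulk and stressed keratinocytes can make. S100A10 and S100A11 partner annexins at membranes, S100A4 binds non-muscle myosin and is known from motile mesenchymal cells, and S100A14 and S100A16 are known from epithelia. Most of these genes lie together in the epidermal differentiation complex, which also holds the genes of the cornified envelope of skin. In the RefSeq annotation of the sheep assembly ARS-UI_Ramb_v3.0, S100A14 lay next to S100A16, S100A4 lay between S100A5 and S100A3, and S100A9 and S100A8 flanked a single gene without a symbol.

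The straight library held 6452 cells and 57956122 unique molecular identifiers (UMIs, each standing for 1 captured transcript), and the curly library held 7585 cells and 77634565 UMIs. The median cell had 7373.5 UMIs in straight and 7495 in curly. Cells were grouped into 20 clusters without using any S100 gene, 14 clusters were named from marker genes as 11 classes ("-like"), and 6 stayed unnamed. Names rested on fixed markers with exceptions: the dermal papilla cell (DPC)-like cluster was nearly without CORIN, and the contractile-like cluster 10 carried the basal keratin KRT5 at 4318 and 4081 CPM beside the muscle actin ACTA2. The outer root sheath (ORS)-like cluster 16 had VDR and FGF5 but also KRT8 and KRT19 among its leading genes. Its luminal gland list was at 3519 and 3758 CPM, above its ORS list at 868 and 774. The same 70 cell barcodes occurred in both libraries, and without those cells each count and log2 ratio over all cells and in DPC-like cells kept its direction and its side of the 2-fold limit. Levels are UMIs of a gene per 1000000 UMIs of the group (CPM), intervals are exact 95% intervals that cover counting error only, and levels were not compared between genes, since 3′ UMI counts carry no length correction.

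Across all cells, S100A8 and S100A4 were the members that stood lowest in curly skin against straight skin. S100A8 was at 44.6 CPM in straight and 19.7 in curly, a log2 ratio of -1.18 (-1.27 to -1.09). S100A4 was at 235 CPM in straight and 120.0 in curly, a log2 ratio of -0.97 (-1.01 to -0.93). The other 5 members lay closer together, with S100A10 at 821 and 562 CPM, S100A9 at 64.7 and 58.4, S100A11 at 1406 and 1293, S100A14 at 868 and 886, and S100A16 at 452 and 484. Only S100A8 was past 2-fold, 1 of 7 members, where 10.2% of the 13196 genes with at least 100 UMIs were past 2-fold in either direction (3.27% higher and 6.91% lower in curly). The median log2 ratio was -0.15 over the members and -0.18 over all those genes. On that shift S100A9 and S100A11 changed sign, to 0.03 and 0.06, and S100A8 came to lie just within 2-fold. With only cells of at least 1800 genes, S100A4 stood at -1.85 and 2 of 7 members were past 2-fold. The share of all genes past 2-fold in those cells was not calculated. The limit of 1800 genes also changed the mixture of cells. It kept 653 of 1283 straight and 143 of 715 curly DPC-like cells, and 16 of 84 and 26 of 154 pericyte-like cells. The part of this in the S100A4 value was not tested.

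The libraries held different mixtures of cells, and this touched S100A4 most. When each cluster was given its straight weight, the log2 ratio of S100A4 moved from -0.97 to -0.43, and that of S100A8 from -1.18 to -1.44. Under the same weighting S100A9 came to -0.48, S100A10 to -0.36, S100A11 to 0.02, S100A14 to -0.24 and S100A16 to -0.09. DPC-like cells supplied 13.7% of all UMIs in straight and 4.08% in curly.

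Among the members with UMIs in each cluster compared, S100A4 had the widest range over cell types. S100A8 in both libraries and S100A9 in curly were at 0 in a cluster, so no fold was calculated for them. In the 17 clusters with at least 25 cells in each library, the S100A4 level spanned 927-fold in straight and 1350-fold in curly. Pericyte-like cells (cluster 13, with RGS5 and DES) stood at 7449.9 CPM (7179 to 7729) in straight and 7175 (6976 to 7379) in curly. S100A4 was detected in 83.3% of the 84 straight cells and 86.4% of the 154 curly cells of that cluster. The pericyte marker list there was at 2805 and 2639 CPM, the contractile list at 7683 and 17303 CPM, and the fibroblast list at 1628 and 695 CPM. Next came DPC-like cells (cluster 0) at 627 CPM (609.8 to 645) in straight and 591 (565 to 619) in curly.

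S100A4 was also well above its lowest level in some epithelial and vessel cells of straight skin. The HFSC-like (hair follicle stem cell-like) cluster 6 was at 443 CPM in straight and 150.4 in curly. The endothelial-like cluster 11 was at 345 and 162, and the contractile-like cluster 10 at 289.7 and 37.9. The intervals of clusters 11 and 10 overlapped in straight, so their order there is not resolved. At the low end, the IRS-like (inner root sheath-like) cluster 9 was at 8.04 and 12.7 CPM, and the hair shaft-like cluster 7 at 17.4 and 7.80.

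A share of cells with a UMI depends on depth and on free RNA, so shares were set beside a cell type at the bottom of the order. IRS-like cells had a S100A4 UMI in 10.3% of straight cells (median 14899.5 UMIs) and 11.6% of curly cells (median 18142 UMIs). Reduced to 2000 UMIs per cell, the shares were 1.52% and 2.31% in IRS-like cells against 82.9% and 89.7% in pericyte-like cells. DPC-like cells, with medians of 5976 and 4261 UMIs, came to 29.5% and 24.7% after the same reduction and 43.6% and 32.3% before it. Both classes were thus above the level in IRS-like cells in both libraries.

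**Figure D1:**
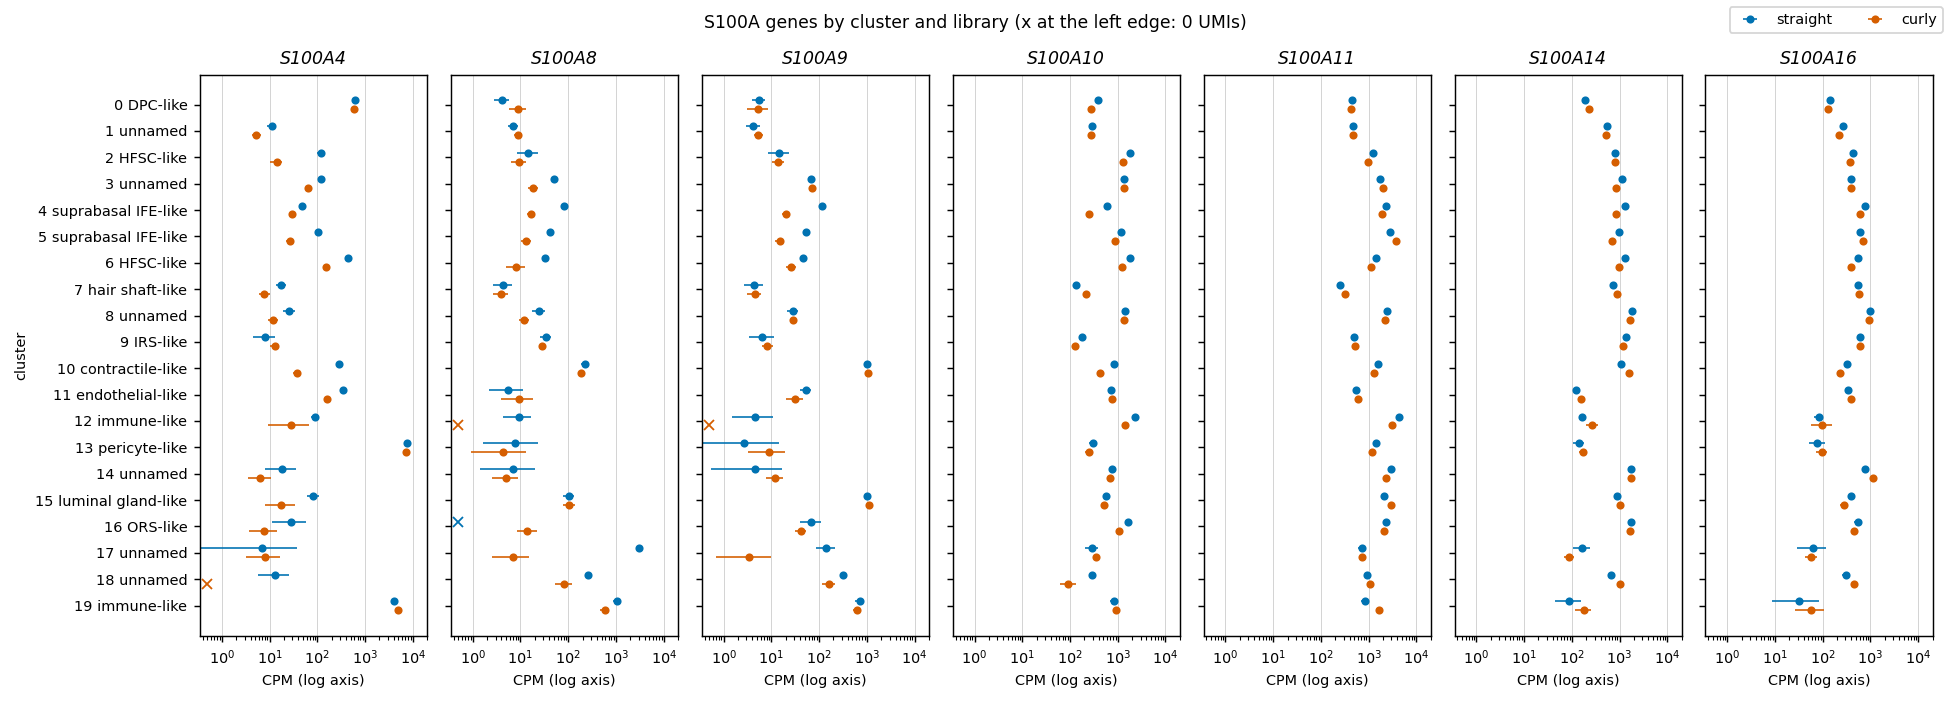
Level of each S100A gene (CPM, log axis, exact 95% Poisson interval) in the 20 clusters of the straight and the curly library, 1 panel per gene, where a cross marks a group with 0 UMIs. S100A4 peaks at 7449.9 and 7175 CPM in pericyte-like cluster 13, S100A9 lies between 1019 and 1091 CPM in clusters 10 and 15 of both libraries, and S100A14 in pericyte-like cluster 13 lies at 139 and 169.6 CPM.

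Few cells carried much of the S100A4 RNA. The top 1% of cells held 34.7% of its UMIs in straight and 54.5% in curly, and pericyte-like cells made up 27 of those 65 straight cells and 55 of those 76 curly cells. Cluster 13 held 20.9% of the S100A4 UMIs of straight and 52.7% of those of curly, with 0.658% and 0.881% of all UMIs. DPC-like cells held 36.6% in straight and 20.1% in curly.

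In DPC-like cells the summed S100A4 level was nearly the same in the libraries, with a log2 ratio of -0.08. This value depended on how cells were counted. The mean of per-cell CPM was 1118 in straight and 746 in curly, a log2 ratio of -0.58. In DPC-like cells with at least 1800 genes, S100A4 was at 253 CPM in the 653 straight cells and 259 in the 143 curly cells, and below that limit at 1517 in 630 straight and 757 in 572 curly cells. Depth moved with the S100A4 level inside this class, and its part in the result was not tested.

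The DPC-like cluster also held the fibroblast marker list, at 829.6 CPM in straight and 1119 in curly, and that list went with S100A4 among its cells. A limit of 10 S100A4 UMIs per 10000, set after the values were seen, separated 245 of 1283 straight cells (19.1%) and 122 of 715 curly cells (17.1%). All 5 genes of the fibroblast list were higher above the limit in both libraries. LUM, which encodes the collagen-binding proteoglycan lumican, was at 959 CPM above the limit and 57.7 below it in straight, and at 1047 and 61.2 in curly. MFAP5, a microfibril component, was at 124 and 6.78 CPM in straight and at 362 and 11.4 in curly. COL3A1, a fibrillar collagen of connective tissue, was at 1726 and 509 CPM in straight and at 2157 and 622 in curly.

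The DPC marker list was mixed over that limit, with 4 of 7 genes higher above it in straight and 2 of 7 in curly. FGF7, a growth factor for keratinocytes, was at 183 CPM above the limit and 797 below it in straight, and at 188 and 362 in curly. RSPO3, which strengthens Wnt signalling, was at 921 and 1289 CPM in straight and at 245 and 1196 in curly. IGFBP3, an IGF-binding protein, was at 10668 CPM above and 4778 below in straight and at 7262 and 6857 in curly. Of the 4 genes of the pericyte list, 2 were higher and 2 lower above the limit in each library, with RGS5 at 0 above it in both. These contrasts describe the cells as split and carry no test, and the cells above the limit were shallower in both libraries (median 3266 against 6640 UMIs in straight, 3587 against 4540 in curly).

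**Figure D2:**
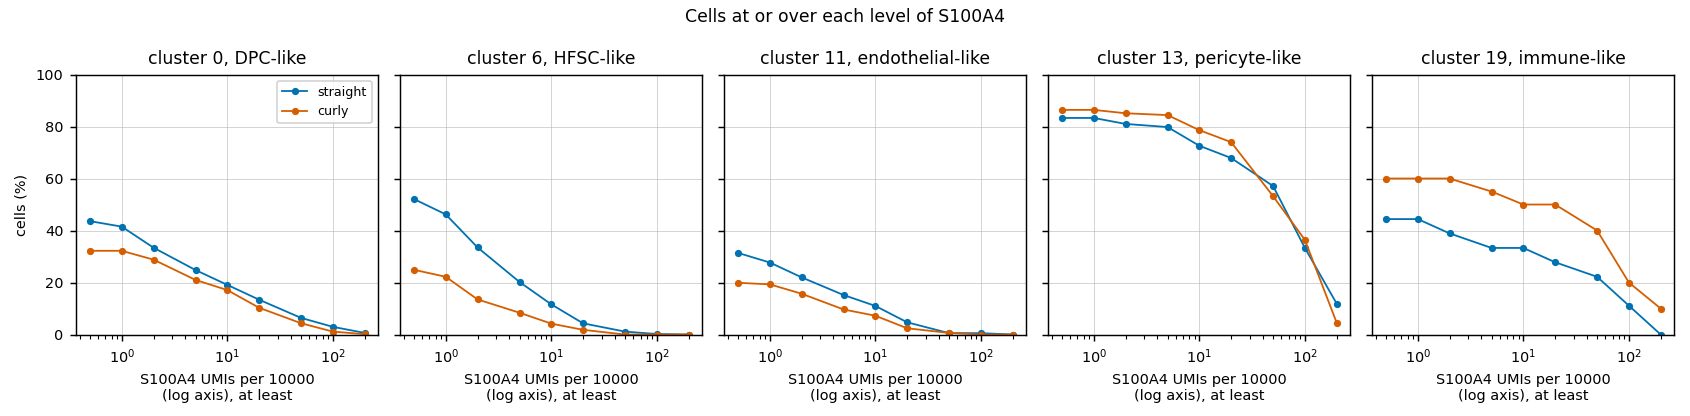
S100A4 UMIs per 10000 UMIs of each cell in the DPC-like, HFSC-like (cluster 6), endothelial-like, pericyte-like and immune-like (cluster 19) cells of the straight and the curly library, drawn as the share of cells (percent) at or above each level. At least 10 per 10000 was reached by 72.6% of straight and 78.6% of curly pericyte-like cells and by 19.1% and 17.1% of DPC-like cells.

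Within clusters S100A4 was lower in curly skin in most cell types. It was past 2-fold in 9 of the 14 clusters with at least 100 of its UMIs, each time lower in curly, where 6.60% of the 77871 pairs of a gene and a cluster were past 2-fold (3.06% higher and 3.55% lower in curly). In the LGR5-bearing HFSC-like cluster 2 it was at 118 CPM in straight and 14.04 in curly, a log2 ratio of -3.07, though these cells were shallow (median 937 and 1399 UMIs). In the contractile-like cluster 10 the log2 ratio was -2.93, in the suprabasal IFE-like (interfollicular epidermis) cluster 5 it was -1.95, and in HFSC-like cluster 6 it was -1.56. The lone positive value was 0.66 in IRS-like cells, from 15 straight UMIs and 94 curly UMIs, and pericyte-like cells stood at -0.05. Pericyte-like cells with at least 1800 genes had S100A4 at 5211 CPM in 16 straight and 3402 in 26 curly cells. Below that limit S100A4 was at 8842 CPM in 68 straight and 9492 in 128 curly cells.

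The DPC marker list was lower in curly in most of those clusters, and in some others. In 7 of the 9 clusters, the summed DPC marker list was at least 2-fold lower in curly, and in 8 of 9 it was lower. Where S100A4 was not past 2-fold, the list was at least 2-fold lower in cluster 4 (178 and 46.9 CPM) and pericyte-like cluster 13 (480 and 209). It was at 62.2 and 49.9 CPM in cluster 9, 311 and 339 in cluster 3, and 12041 and 14430 in cluster 0. In cluster 10 the DPC list was at 461 CPM in straight and 62.9 in curly, a log2 ratio of -2.87. In the endothelial-like cluster 11, where S100A4 stood at -1.09, the DPC list was instead higher in curly, at 938 and 1449.9 CPM. The pericyte list was at least 2-fold lower in 0 of the 9 clusters and the macrophage list in 0. The part of DPC RNA in these S100A4 values was not tested.

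**Figure D3:**
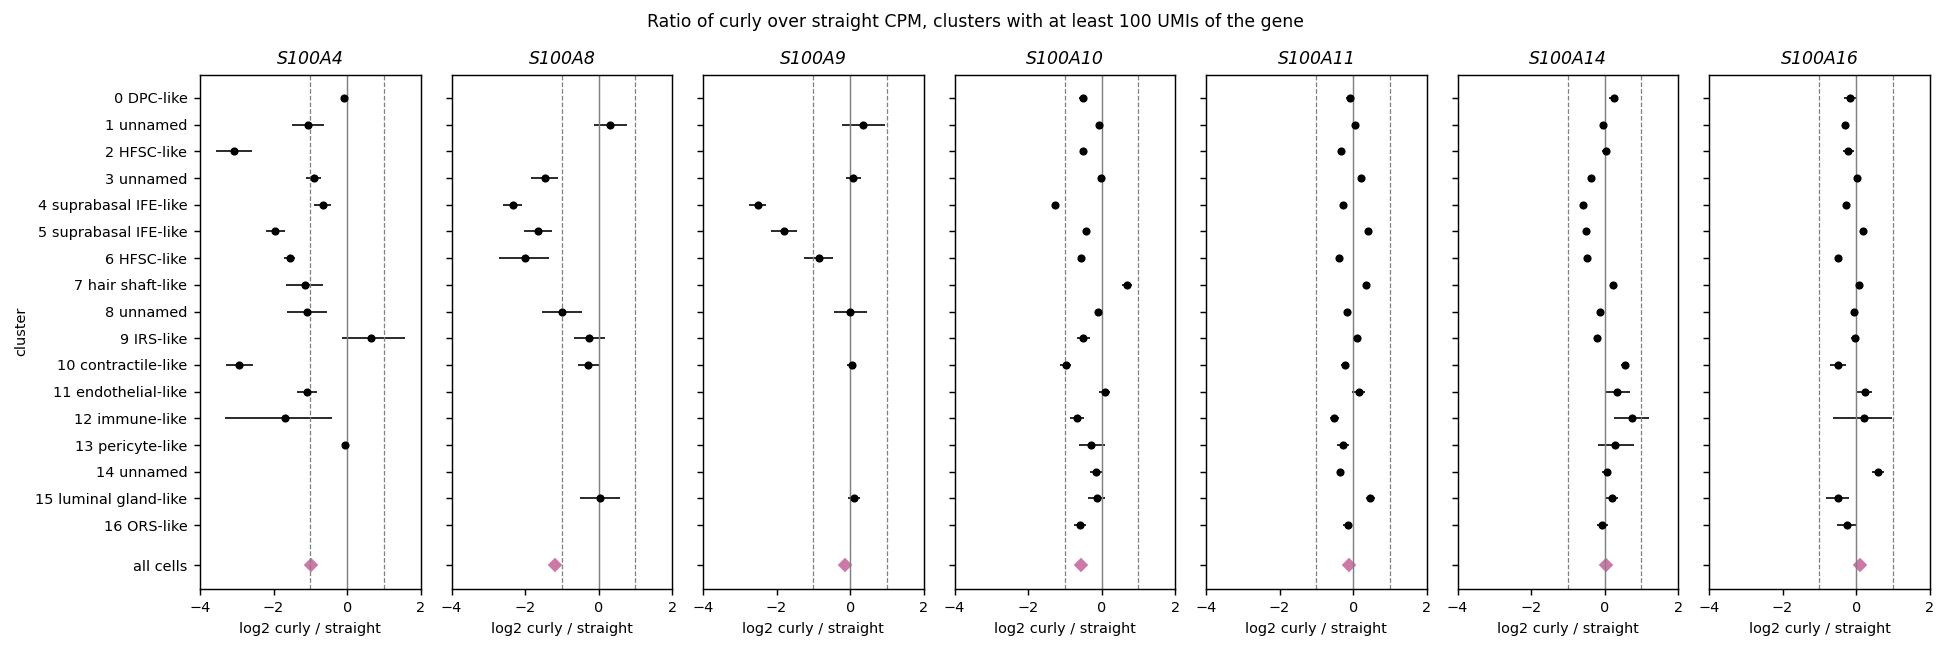
Log2 ratio of curly over straight for each S100A gene in the clusters with at least 25 cells in each library and at least 100 UMIs of the gene, with the 95% counting interval. S100A4 lies at -1 or below in 9 of 14 clusters and S100A8 in 5 of 9, while S100A11, S100A14 and S100A16 stay within 2-fold in each cluster shown. For S100A8 in cluster 8 (-1.01), 26 of the 46 straight UMIs lay in 1 cell.

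S100A9 marked the contractile-like and the luminal gland-like cells. In contractile-like cluster 10 it was at 1031 CPM (956 to 1111) in straight and 1060.4 (1020.2 to 1102) in curly. In luminal gland-like cluster 15, with KRT7 and KRT19, it was at 1019 (941 to 1103) and 1091 (1002 to 1186). A single curly cell held 291 of the 554 UMIs of cluster 15, and without it the curly level was 526 CPM. The intervals of these clusters overlapped in both libraries, so their order is not resolved. Cells with an S100A9 UMI made up 62.7% and 74.5% of cluster 10 and 64.2% and 51.2% of cluster 15, against 2.88% and 2.24% of DPC-like cells.

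Reduction to 2000 UMIs per cell kept that difference. The S100A9 shares came to 49.0% and 57.1% in cluster 10 (median 7013 and 10674.5 UMIs), 52.2% and 34.8% in cluster 15 (median 4772 and 5272 UMIs), and 1.01% and 0.995% in DPC-like cells. Cluster 10 gave 18.5% of all S100A9 UMIs in straight and 58.0% in curly. It was 1.16% and 3.19% of all UMIs.

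S100A8 had its highest level in the same contractile-like cluster, among clusters with at least 25 cells in each library. It was at 219.9 CPM (186 to 258) in straight and 182 (165 to 199) in curly. Luminal gland-like cells followed at 102 and 104 CPM. After reduction to 2000 UMIs the share of cells with an S100A8 UMI was 18.3% and 15.6% in cluster 10 and 0.893% in DPC-like cells of both libraries, against 36.1% and 28.1%, and 2.18% and 1.68%, before it. Neutrophil markers were at 1.49 and 0.403 CPM in cluster 10 and at 0 in cluster 15.

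The calprotectin genes were both lower in curly skin in the suprabasal IFE-like clusters. In suprabasal IFE-like cluster 4, with LOR and KRT79, S100A8 was at 83.3 CPM in straight and 16.4 in curly, a log2 ratio of -2.34. S100A9 in cluster 4 was at 113 and 19.8 CPM, a log2 ratio of -2.52. In suprabasal IFE-like cluster 5, with KRT1 and KRT2, S100A8 stood at -1.65 and S100A9 at -1.80. Neutrophil markers were at 1.40 to 1.81 CPM in straight and 2.33 to 2.42 CPM in curly in these clusters. The suprabasal marker list was at 41145 and 61435 CPM in cluster 4 and at 21855 and 42900.0 in cluster 5. The basal IFE list was at 13253 and 5021 CPM in cluster 4 and at 35723 and 30672 in cluster 5. Cluster 5 thus held basal as well as suprabasal markers, with the basal list the higher in straight. The DPC list was at 178 and 46.9 CPM in cluster 4 and at 396 and 198 in cluster 5. The part of these markers in the S100A8 and S100A9 values was not tested.

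Elsewhere the calprotectin genes parted. S100A8 was past 2-fold in 5 of 9 clusters and S100A9 in 2 of 8, each time lower in curly, beside the 3.55% of all pairs of a gene and a cluster. In cluster 8, where S100A8 was at -1.01, a single straight cell held 26 of the 46 straight UMIs. Without the top cell of each library, S100A8 was at 10.7 and 8.37 CPM there, within 2-fold. The DPC list was at least 2-fold lower in 3 of the 5 S100A8 clusters and in both S100A9 clusters. Where S100A8 was not past 2-fold, the list was at 314 and 70.5 CPM in cluster 1 and at 461 and 62.9 in cluster 10. It was at 62.2 and 49.9 CPM in cluster 9 and at 321 and 390 in cluster 15. Where only S100A8 was past 2-fold, the list was at 311 and 339 CPM in cluster 3, 727 and 407 in cluster 6, and 168 and 31.2 in cluster 8. In HFSC-like cluster 6 S100A8 was at -2.01 and S100A9 at -0.85. In the unnamed cluster 3, with DLK2 and POSTN, S100A8 was at 50.4 and 18.3 CPM while S100A9 was at 66.4 and 70.8. In cluster 10 neither gene was near 2-fold, with log2 ratios of -0.28 and 0.04.

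Cells with S100A8 often held S100A9 too. Of the 1104 cells with an S100A8 UMI, 424 also had an S100A9 UMI, which is 38.4% (35.5% to 41.3%, exact binomial). S100A9 was found in 12.2% of all straight cells and 11.4% of all curly cells. The shared fraction was 41.0% in straight and 35.1% in curly, and 28.0% and 27.8% when cells were reduced to 2000 UMIs, where 5.46% and 5.00% of all cells kept S100A9. It was 76.7% and 90.9% within contractile-like cells, 100% (16 of 16 cells) and 76.9% within luminal gland-like cells, and 3.57% and 0% within DPC-like cells. Over 36 points, each a cluster in a library, the log levels of S100A8 and S100A9 had a Pearson correlation of 0.85. Points of a library share its depth and free RNA, so this value is a description.

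The immune-like classes held opposite S100A patterns. Cluster 12, with the mast cell tryptase TPSB2, carried S100A8 at 9.12 CPM in straight and 0 UMIs in curly, where 3 UMIs would be 16.9 CPM. Cluster 19, with 18 straight and 20 curly cells, carried S100A8 at 1038 and 581 CPM, S100A9 at 719 and 632 CPM, and S100A4 at 4121 and 4883 CPM. For the named classes as a whole, 12 of 63 pairs of a member and a class were past 2-fold, where 7.48% of all 47425 pairs were (3.55% higher and 3.93% lower in curly). Of the 12 pairs, 9 were lower in curly. The 3 that were higher in curly were all in the immune-like class, with log2 ratios of 2.2 for S100A4, 1.25 for S100A8 and 1.93 for S100A9. Cluster 19 gave 5.98% of the immune-like cells of straight and 21.5% of those of curly. Over single clusters 17 of 98 pairs were past 2-fold (6.60% of all such pairs), and 0 of them were higher in curly (3.06% of all such pairs).

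Cluster 19 held cells of opposite kinds. A limit of 10 S100A8 UMIs per 10000, set after the values were seen, gave 9 cells (6 straight, 3 curly) with 219 S100A8 UMIs and 180 S100A9 UMIs among 7772 UMIs in all. These cells had 0 UMIs of S100A4 and 0 of CD74, the invariant chain of antigen-presenting cells. They held 44 UMIs of the neutrophil marker list, 21 of CXCR2, a chemokine receptor of neutrophils, and 12 of CSF3R, the receptor for granulocyte colony-stimulating factor. The other 29 cells had 1281 S100A4 UMIs in 20 cells, 4825 CD74 UMIs, 2 S100A8 UMIs and 9 S100A9 UMIs. Their median depth was 8303 UMIs against 837 in the 9 cells. Not all of the 29 cells held CD74, and a curly cell with S100A4 at 310 per 10000 had 0 CD74 UMIs.

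**Figure D4:**
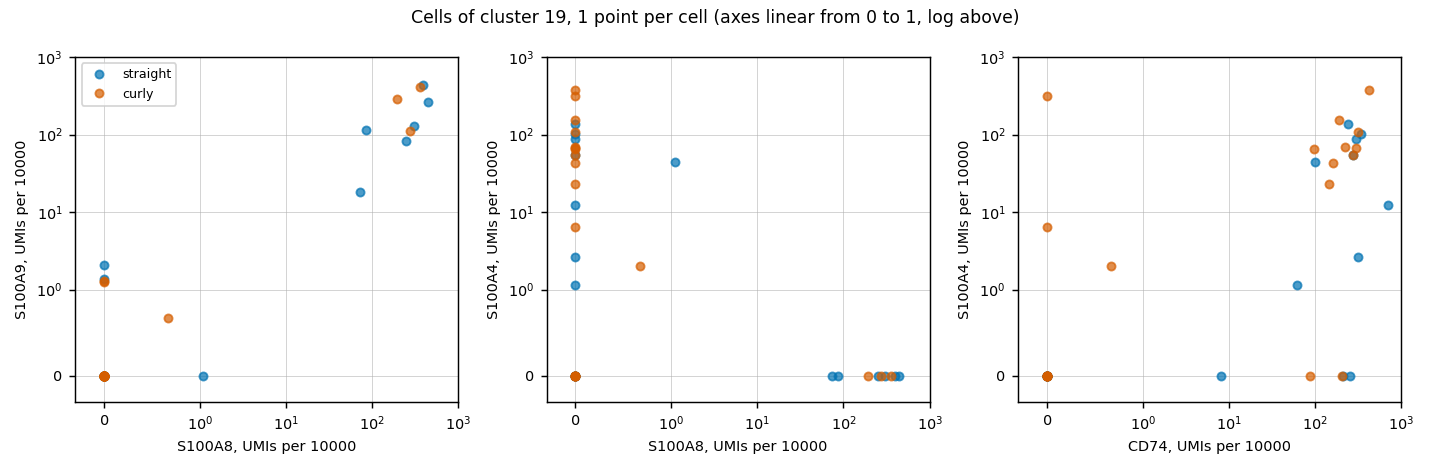
S100A8 and S100A4 UMIs per 10000 UMIs in each of the 38 cells of immune-like cluster 19, straight and curly library marked. The 9 cells with at least 10 S100A8 UMIs per 10000 held 0 S100A4 UMIs, and S100A4 UMIs were found in 20 of the other 29 cells.

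The gene between S100A9 and S100A8, LOC101103771, was found beside both in cluster 19. It has no symbol in the annotation and was looked at for its position, after the values were seen. It stood at 40.0 CPM in straight and 13.2 in curly across all cells, a log2 ratio of -1.60 (-1.71 to -1.49). In cluster 19 its 314 UMIs all lay in the 9 cells with much S100A8. Outside cluster 19 it was at 224.5 and 63.0 CPM in luminal gland-like cluster 15 and at 153.9 and 50.4 in ORS-like cluster 16. Suprabasal IFE-like cluster 4 was at 115.5 CPM in straight and 9.79 in curly. That cluster held 831 of the 2317 straight UMIs and 93 of the 1025 curly UMIs of the gene. In contractile-like cluster 10 it was at 41.6 and 21.4 CPM, and in cluster 2 at 12.7 and 23.7. Over the 36 points its correlation was 0.71 with S100A9 and 0.58 with S100A8.

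S100A10 and S100A11 were found in most cells, and stood high in the TPSB2-bearing immune cluster and in keratinocyte clusters. S100A10, which encodes the light chain of the annexin A2 complex, was at 2293 CPM in cluster 12 of straight and 1432 in curly. HFSC-like cluster 2 was at 1808 and 1261 CPM and HFSC-like cluster 6 at 1789 and 1214, with overlapping intervals in both libraries. Hair shaft-like cells were at 133 and 214 CPM and IRS-like cells at 182 and 128. The single cluster past 2-fold was suprabasal IFE-like cluster 4, at 593 and 244 CPM, a log2 ratio of -1.28, and cluster 10 lay just within the limit at -0.98.

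S100A11, a partner of annexin A1 found at the cornified envelope, was at 4381 CPM in cluster 12 of straight and 3083 in curly. In the suprabasal IFE-like cluster 5 it was at 2833 and 3749 CPM, and hair shaft-like cells were lowest at 252 and 323. Its log2 ratios ran from -0.51 to 0.47, and 0 of 17 clusters were past 2-fold. Over the 36 points S100A10 and S100A11 had a correlation of 0.69.

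S100A14 and S100A16, neighbours in the genome, marked the epithelial clusters. S100A14 was at 1801 CPM in the KRT6A-bearing cluster 8 of straight and 1645 in curly, at 1716 and 1629.5 in ORS-like (outer root sheath-like) cells, and at 1712 and 1769 in the KLK6-bearing cluster 14. The straight intervals of these clusters overlapped. Of the 17 clusters, endothelial-like cells were lowest at 124 and 157 CPM. An S100A14 UMI was still found in 41.4% and 39.2% of endothelial-like cells (median 5314 and 3827 UMIs), and in 17.3% and 20.3% after reduction to 2000 UMIs, against 94.2% and 91.8% of ORS-like cells (median 8710.5 and 15529 UMIs, 92.3% and 96.6% before it).

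S100A16 was at 963 and 928 CPM in cluster 8, at 767 and 1147 in cluster 14, and at 752 and 618 in suprabasal IFE-like cluster 4. Of the same clusters, pericyte-like cells were lowest at 76.0 and 95.05 CPM. Outside the epithelium, endothelial-like cells kept S100A16 at 333 and 389 CPM. The log2 ratios of S100A14 ran from -0.59 to 0.74 and those of S100A16 from -0.50 to 0.58, with 0 of 17 and 0 of 16 clusters past 2-fold. The correlation of S100A14 with S100A16 was 0.81, and that of S100A4 with S100A14 was -0.52.

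The class with the highest level was the same in both libraries for 3 of 7 members, and counting error left the top of the order open for 3 members. S100A4 stood highest in pericyte-like and S100A16 in suprabasal IFE-like cells of both libraries, with intervals above those of the next class. S100A14 stood highest in ORS-like cells, but its interval overlapped that of contractile-like cells in curly (1561 to 1701 and 1492 to 1590.4 CPM). S100A8 stood highest in contractile-like cells of straight and in immune-like cells of curly. That curly value rested on 91 UMIs in 4 of 93 cells, all in cluster 19, a spread that the counting interval does not cover. S100A11 stood highest in immune-like cells of straight and luminal gland-like cells of curly. In curly, immune-like cluster 12 alone was at 3083 CPM (2830 to 3353) for S100A11, overlapping luminal gland-like cells at 2876 (2730 to 3027). For S100A9, contractile-like and luminal gland-like cells overlapped in both libraries. S100A10 stood highest in immune-like cells of straight, and in curly its HFSC-like and immune-like intervals overlapped. Cluster 12 alone was at 1432 CPM (1261 to 1619) for S100A10 in curly, and HFSC-like cells at 1240 (1212.5 to 1268).

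Genes with the most similar pattern over the 36 points were sought among 9875 genes with at least 500 UMIs. S100A4 was most like FXYD1 (Pearson correlation 0.894), ADAMTS4 (0.878) and MFGE8 (0.855). Genes with a pattern like that of S100A8 included NGEF (0.776) and DKK1 (0.763), which encodes a secreted Wnt inhibitor. S100A9 was most like ATP1B1 (0.881), a subunit of the sodium pump, NEDD4L (0.843) and LOC114116813 (0.836). S100A10 was most like ENAH (0.789), GCLM (0.770) and PPP1R3B (0.765), and S100A11 like IL18 (0.772), SCEL (0.741) and UBXN4 (0.737). S100A14 was most like MPZL2 (0.901), PERP (0.865), which encodes a desmosome protein, and FAM84A (0.856). S100A16 was most like SFN (0.862), which encodes the epithelial protein stratifin, JUP (0.857), a junction protein gene, and RAB25 (0.857).

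Beyond the members, 10 of 13 other S100 genes looked for had a row and 7 of these had at least 100 UMIs, of which 2 were past 2-fold, both lower in curly, beside 6.91% of all genes. The median log2 ratio of the 7 was -0.39. S100A7A (LOC114113225), a psoriasin gene of keratinocytes, was at 370.0 CPM in straight and 75.03 in curly, a log2 ratio of -2.30. Of its UMIs, 19635 of 21444 in straight and 5210 of 5825 in curly came from suprabasal IFE-like cluster 4, at 2729 and 549 CPM, the cluster where S100A8 and S100A9 differed most. S100A5, the neighbour of S100A4, was at 4.09 and 1.31 CPM, a log2 ratio of -1.64. S100A2, a keratinocyte gene, was at 4942 and 3765 CPM, and S100A3, known from the hair cuticle, was just within 2-fold at 13.5 and 26.4 CPM (log2 ratio 0.97).

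Of 11 genes of binding partners, 9 had a row and 8 had at least 100 UMIs, with 1 past 2-fold, beside 10.2% of all genes, and a median log2 ratio of -0.44. That gene was ANXA6, a membrane-binding annexin, at 29.8 CPM in straight and 12.4 in curly, a log2 ratio of -1.27. ANXA2, the partner of S100A10, was at 1972 and 1507 CPM, and ANXA1, the partner of S100A11, at 651 and 392. MYH9, the myosin heavy chain that S100A4 binds, was at 74.9 and 54.1 CPM.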

How the data were processed

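The authors made 1 droplet library (3′ UMI counts) per wool type from cells of 3 pooled lambs. The submitters' processing notes name Cell Ranger 3.0.2 and the build Oar_rambouillet_v1.0. The deposited table covers 14037 cells, and its unit is the authors' natural log of scaled UMIs with 1 added (scale of 10000 for each cell). The series record states 15830 cells. UMIs were recovered by undoing this scale, and 100% of 28552149 values above 0 came out whole within 0.01.

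Cells were clustered in Seurat 5.3.0 (R 4.3.3) on 2000 variable genes without S100 genes and 30 dimensions after anchor integration, at resolution 0.3. A cluster was named where the mean log2 ratio of fixed markers was at least 1.5, with at least 3 markers in 10% of its cells, unless its 10 leading genes held more markers of another class or it was shallow (3 times its median UMIs still under that of its libraries) with none of its markers among them. UMIs were summed by cluster and library (Python 3.11.15, numpy 2.4.6, scipy 1.17.1), with exact Poisson and Clopper-Pearson intervals at 95%. A ratio was called past 2-fold at 100 UMIs or more. The range over clusters took those with at least 25 cells per library. The named genes are the members, annexin partners, other S100 genes over 500 CPM in a class, and the 3 genes outside the family most like each member by correlation of log2(CPM + 10), of which 1 is not reported here. Other genes with values (list genes past or near 2-fold, MYH9, LOC101103771, genes of the split cells) and the limits on S100A8 and S100A4 were chosen after values were seen. Members and lists were chosen with earlier results of these data known. The scripts were tested on simulated data. Doublets were kept, since Scrublet's own threshold called 0.93% of straight and 0.0264% of curly cells, and removing the 6% with the highest scores was an alternative. RefSeq neighbours are of another assembly, so no coordinates are given, and no sequences were used here.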

Additional observations from a re-analysis of the deposited data

How the results depend on the processing

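No paired analysis was possible because each wool type has 1 library, and for the same reason no replicate could be left out. With cells of at least 1800 genes, 2 members were past 2-fold across all cells in place of 1, S100A4 across all cells moved from -0.97 to -1.85, S100A4 in DPC-like cells turned from -0.08 to 0.03, and the share of S100A8 cells with S100A9 was 41.8%. By the mean of per-cell CPM, 0 members were past 2-fold, S100A4 in DPC-like cells was -0.58, and 5 of 7 members had the same highest class in both libraries in place of 3. S100A4 in DPC-like cells was -0.19 at resolution 0.8 and -0.34 without integration. Centred on the median of all genes, 0 members were past 2-fold, and S100A9 turned to 0.03 and S100A11 to 0.06. With clusters weighted as in straight, which was added after the data were seen, S100A11 turned to 0.02, S100A14 to -0.24 and S100A16 to -0.09, and S100A4 was -0.43. The causes were not tested. Pairs of a member and a class past 2-fold numbered 12, and 8 to 17 under the alternatives. Shares over all genes were calculated for the main setting and for single clusters only, so the other counts have none beside them. The counting intervals hold no spread between lambs, so a difference cannot be separated from that between the pools. At 0 UMIs the limit was 0.0518 CPM over all straight and 0.0386 CPM over all curly cells, and it was higher in small clusters.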

Other observations

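Cluster 17, an unnamed cluster with wool keratin-associated genes and 18 straight and 64 curly cells, held S100A8 at 3007 CPM in straight and 6.83 in curly. Its luminal gland marker list was at 5822 CPM in straight and 2458 in curly, and its hair shaft list at 89.5 and 80.8. Of its 437 straight S100A8 UMIs, 435 lay in 5 cells and 296 in 1 of them. These 5 cells, picked by their S100A8 level, also held 786 UMIs of S100A2, 405 of PGLYRP1, which encodes an antibacterial peptidoglycan-recognition protein, and 186 of CHI3L1, with 19 of S100A9 and 0 of the neutrophil list. The other 77 cells of the cluster held 8 S100A8 UMIs. The unnamed cluster 18, with the lipid droplet gene PLIN2 and PPARG, held S100A8 at 265 and 82.5 CPM and S100A9 at 311 and 158 CPM in its 52 straight and 20 curly cells.

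Among other genes of the epidermal differentiation complex, some were higher in curly skin. Of 14 such genes, 9 had a row and 6 had at least 100 UMIs, of which 4 were past 2-fold, all higher in curly, where 3.27% of all genes were past 2-fold as higher in curly, with a median log2 ratio of 1.58 over the 6. LOR, which encodes the envelope protein loricrin, was at 16.01 CPM in straight and 266 in curly, a log2 ratio of 4.05. RPTN, a repetin gene and a leading gene of IRS-like cluster 9, was at 107 and 366 CPM, while that cluster held 136 of 6452 cells in straight and 455 of 7585 in curly. CRNN and IVL were within 2-fold at log2 ratios of 0.36 and 0.27, and FLG, the filaggrin gene, was at 30.7 and 79.9 CPM. KPRP had 2 UMIs in straight and 219 in curly, a log2 ratio of 6.35 (4.48 to 9.41).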
